A study of Saccharomyces cerevisiae with 7 samples.

Results

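The small subunit of the cytosolic ribosome of *Saccharomyces cerevisiae* is built from proteins whose genes are named RPS0A to RPS31. The 56 genes followed here were chosen by locus tag. All 56 matched the RefSeq gene table and the deposited mRNA-seq table, which lists 6550 genes. Of the 10580 sites called in 5 CLIP (crosslinking and immunoprecipitation) libraries, 314 carried one of their names. These were 29 of 899 sites in Puf1, 53 of 1949 in Puf2, 128 of 3002 in Puf4, 78 of 3361 in Puf5 and 26 of 1369 in Puf6. At least 1 site was named for 55 of the 56 genes, and RPS21B (YJL136C) had none in the 5 lists.

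Each library came from a MATa strain carrying his3Δ1, leu2Δ0, met15Δ0 and ura3Δ0, in which PUF1, PUF2, PUF4, PUF5 or PUF6 was fused to a TAP tag with a HIS5 marker. Cells grew at 30 °C in synthetic defined medium with 200 µM 4-thiouracil and were irradiated 4 times at 365 nm with 150 mJ/cm2, and the tagged protein was captured after RNase T1 treatment. The mRNA level came from 2 samples of strain BY4742 labelled puf3Δ::KAN, deposited as 1 RPKM column (reads scaled to transcript length and library depth), so it has no error of its own and describes a strain other than the CLIP strains. Each protein had 1 library, and no untagged library was used here. Differences between libraries therefore have no replicate check, no test was made, and intervals on shares cover counting error only.

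Puf proteins are RNA-binding proteins of the Pumilio family. They recognise short elements, for the most part in 3' untranslated regions (UTRs), and several of them recruit the deadenylation machinery to the mRNA. Puf6 is a nucleolar protein also linked to assembly of the large ribosomal subunit. Ribosomal protein mRNAs are among the most abundant in growing yeast, and the genome holds most of these genes as 2 similar copies, A and B. Of the 56 genes, 48 formed 24 such pairs, and 8, such as RPS2, RPS3, RPS12 and RPS31, were present in 1 copy.

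A site is a region called by the authors, and its strength is given in RPM, a read number scaled to library depth. RPM of a site is not corrected for the level of the mRNA. A gene is called bound when its name was given to at least 1 site within the mRNA or its introns. The 56 mRNAs had a median of 1189 RPKM (134.7 in RPS22B to 6531 in RPS12), against a median of 60.4 RPKM over all 5521 protein-coding genes at or above 1 RPKM, the 56 included.

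Puf4, Puf5 and Puf2 had sites in most of the small subunit genes, and Puf6 in the fewest. Puf4 bound 50 of the 56 genes, 89.3% (95% interval 78.1 to 96.0), against 19.7% of all 5521 genes. Puf5 bound 45 genes, 80.4% (67.6 to 89.8), against 25.0% of all genes. Puf2 bound 35 genes, 62.5% (48.5 to 75.1), against 11.7%. Puf1 bound 24 genes, 42.9% (29.7 to 56.8), against 5.81%. Puf6 bound 19 genes, 33.9% (21.8 to 47.8), against 6.34%. The lists differed in length, from 899 sites in Puf1 to 3361 in Puf5. With each list limited to 899 sites, Puf4 bound 36 genes, Puf5 31, Puf2 27, Puf1 24 and Puf6 16.

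Puf5 had a 3' UTR site in 38 of the 56 genes, against 17.3% of all 5521 genes, and Puf4 in 31, against 8.35%. Puf2 had one in 23 genes, against 4.64% of all genes, Puf1 in 16, against 2.7%, and Puf6 in 6, against 1.49%. Puf5 thus had more genes of the group with a 3' UTR site than Puf4, although it bound fewer of them over the whole mRNA.

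Shares were also high among other abundant mRNAs. Outside both ribosomal subunits, 130 genes had an RPKM of at least 879.3, the lower quartile of the small subunit genes. Among the 42 small subunit genes at or above this level, Puf4 bound 92.9% (80.5 to 98.5), against 79.2% (71.2 to 85.8) of the 130 other genes. For Puf5 the shares were 83.3% (68.6 to 93.03) of the 42 genes and 74.6% (66.2 to 81.8) of the 130. Puf2 bound 61.9% of the 42 genes and 66.9% of the 130, Puf1 42.9% and 43.8%, and Puf6 33.3% and 36.2%. In each of the 5 libraries the intervals overlapped. A 3' UTR site was called by Puf5 in 66.7% of the 42 genes and 64.6% of the 130, and by Puf4 in 57.1% and 43.1%. For Puf2 these shares were 42.9% and 34.6%, for Puf1 26.2% and 23.1%, and for Puf6 7.14% and 13.1%. Among the 130 genes too, Puf5 had more genes with a 3' UTR site than Puf4 but bound fewer over the whole mRNA. Large subunit genes, which number 81, were bound in 64 cases by Puf4, 61 by Puf5, 50 by Puf2, 31 by Puf1 and 20 by Puf6.

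**Figure D1:**
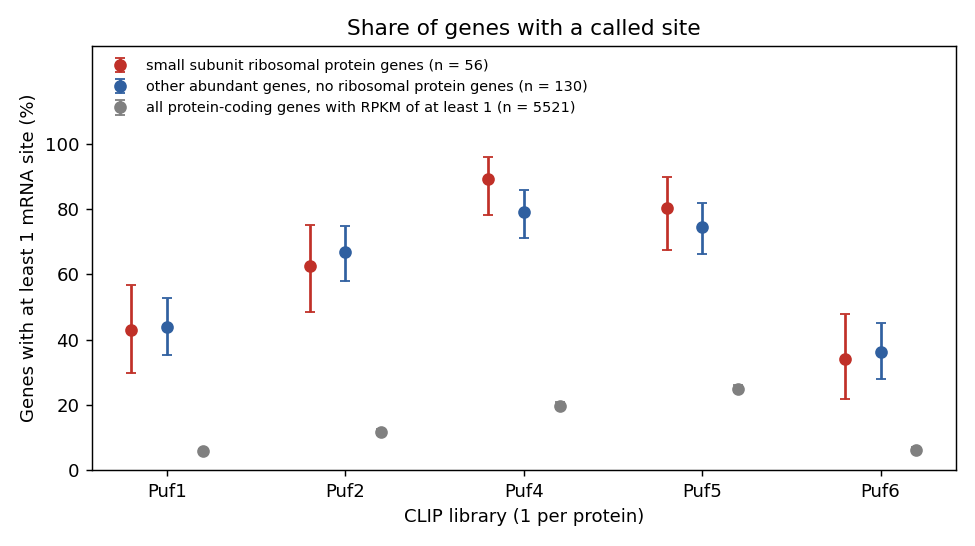
Share of genes with at least 1 called mRNA site in each CLIP library, in percent, for the 56 small subunit ribosomal protein genes, for 130 other abundant genes and for all 5521 protein-coding genes at or above 1 RPKM. Bars are exact 95% binomial intervals for counting error. The small subunit genes lie far above all genes in each library (89.3% against 19.7% in Puf4) and their intervals overlap those of the other abundant genes.

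The number of libraries with a site ranged from 0 to 5. RPS0B, RPS4A, RPS12 and RPS25A were bound in all 5, 17 genes in 4, 21 in 3, 9 in 2 and 4 in 1. Each gene bound in all 5 had, in at least 1 of them, a single site low in the list. For RPS0B it had 4.41 RPM in Puf6 (rank 437 of 438 mRNA sites), and for RPS4A 5.27 RPM in Puf5 (2262 of 2264). For RPS25A it had 2.08 RPM in Puf1 (432 of 435), and for RPS12 6.89 RPM in Puf2 (974 of 1032). RPS12 also had a single site of 47.5 RPM in Puf1 (410 of 435), and RPS4A a single site of 16.0 RPM in Puf6 (383 of 438). The 4 genes bound in 1 library were RPS11B and RPS14B in Puf5 and RPS26A and RPS27B in Puf4. Of the 130 other abundant genes, 21 were bound in all 5 libraries and 4 in none.

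**Figure D2:**
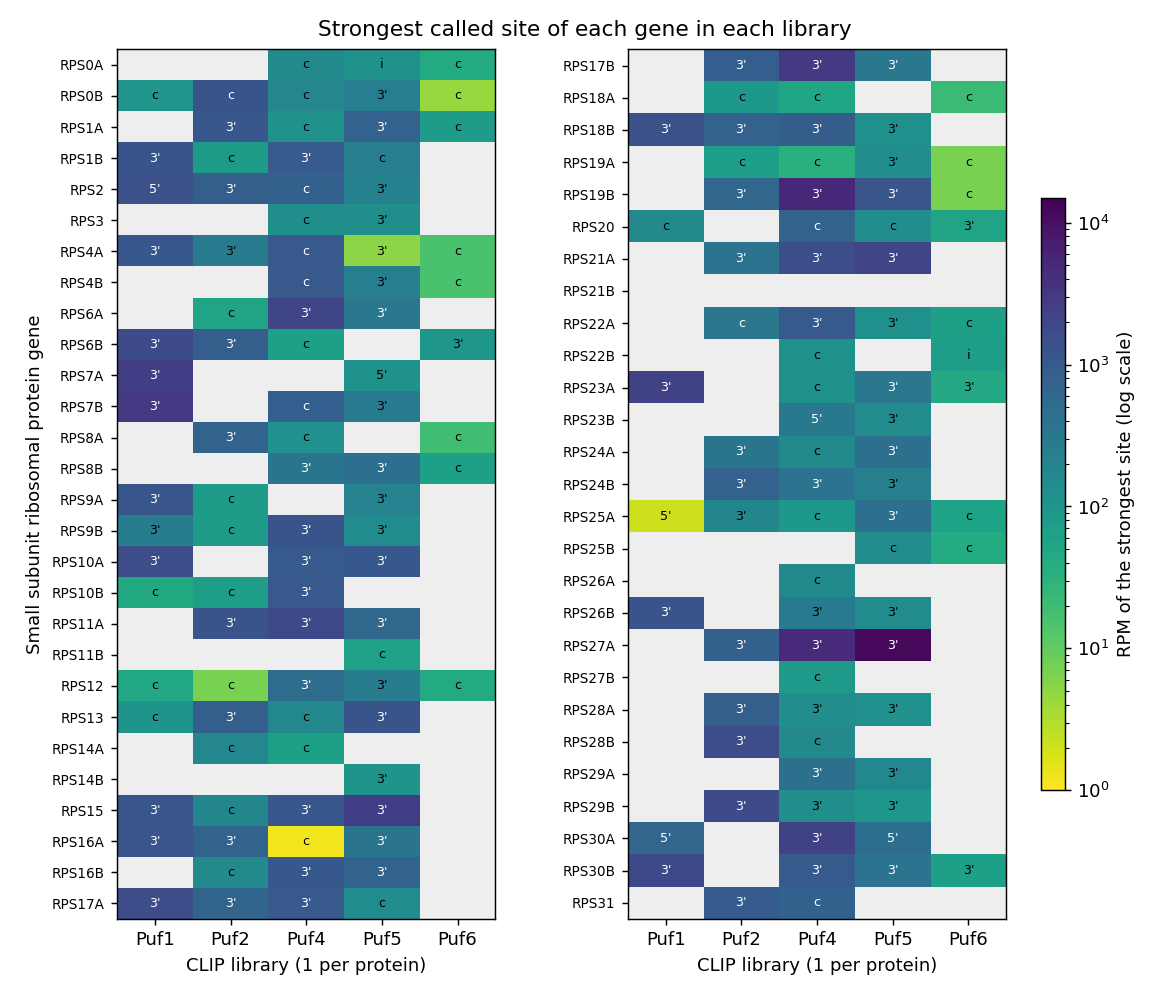
Strongest called site of 55 of the 56 genes (rows) in each CLIP library (columns), coloured by RPM on a log scale. Letters give the place of that site (3' for 3' UTR, 5' for 5' UTR, c for coding sequence, i for intron), and grey means no site. RPS27A in Puf5 (12395 RPM) is the darkest cell, and the Puf6 column holds no value above 94.04 RPM.

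The strongest sites of the group in Puf4 and Puf5 lay in 3' UTRs. Rps27, Rps19 and Rps15 are structural proteins of the small subunit, with Rps15 and Rps19 in its head. The strongest site of the whole group was in the 3' UTR of RPS27A (YKL156W) in Puf5, with 12395 RPM (sacCer3, chromosome XI, 159362 to 159382, plus strand), 150 nt past the stop codon. It was the second strongest of the 2264 mRNA sites of that library. RPS27A mRNA had a level of 373 RPKM, below the median of the group. The same place was called in Puf4 with 4665 RPM (159366 to 159388), rank 14 of 1792 mRNA sites, and in Puf2 with 782.8 RPM. It was not called in Puf1 or Puf6.

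In Puf4 the strongest site was that of RPS19B (YNL302C), with 5214 RPM in the 3' UTR (chromosome XIV, 61901 to 61922, minus strand), 36 nt past the stop codon and rank 9 of the mRNA sites. Besides RPS27A, the 5 highest genes of the group included RPS17B (2930 RPM) and RPS30A (2370 RPM), both in the 3' UTR. In Puf5, RPS15 (2566 RPM), RPS21A (2053 RPM) and RPS13 (1249 RPM) were among the 5 highest with RPS27A, again in the 3' UTR.

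Puf1 was led by the copies of RPS7, whose protein is a target of ubiquitin ligases. RPS7B had 2874 RPM and RPS7A 2483 RPM, both in the 3' UTR and starting 10 and 1 nt past the stop codon. RPS23A (2254 RPM) and RPS30B (1770 RPM) were also among its 5 highest. Puf2 was led by RPS29B (1594 RPM), RPS28B (1544 RPM), RPS11A (1281 RPM), RPS0B (1241 RPM) and RPS1A (1118 RPM). The RPS0B site was in the coding sequence and the other 4 in the 3' UTR. No gene was among the 5 highest of both Puf1 and Puf2. These were taken from 24 genes bound by Puf1 and 35 bound by Puf2. No level for such an overlap was worked out, so this does not show a difference between the 2 proteins.

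Puf6 sites in the group were weak by this measure, from 4.41 to 94.0 RPM per gene. The strongest was in RPS6B (YBR181C), whose protein is phosphorylated downstream of the TOR kinase (94.0 RPM, chromosome II, 591622 to 591651, minus strand). It ranked first of the 86 Puf6 sites classed as 3' UTR and ninth of its 438 mRNA sites. It was followed by RPS1A (75.5 RPM, coding sequence), RPS22B (68.5 RPM, intron), RPS30B (64.98 RPM, 3' UTR) and RPS8B (64.98 RPM, coding sequence). The 3 sites of RPS22B classed as intron lay over SNR44, a small nucleolar RNA gene encoded within RPS22B (chromosome XII, 856710 to 856920). They had 42.0, 68.5 and 9.27 RPM, so their reads cannot be assigned to the ribosomal protein transcript. A further Puf6 site of RPS22B, in an intron of its 5' UTR, had 66.7 RPM and overlapped no other gene of the RefSeq table.

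The median of the strongest RPM per bound gene was 467 RPM in Puf4 for the small subunit genes (1.22 to 5214 RPM), against 491 RPM for the 103 bound genes among the 130 other abundant genes. It was 242 RPM against 313 RPM in Puf5, 637 RPM against 428 RPM in Puf2, 1217 RPM against 1475 RPM in Puf1 and 41.5 RPM against 49.6 RPM in Puf6. Over all other bound background genes the median was 158 RPM in Puf4, 126 RPM in Puf5, 319 RPM in Puf2, 1315 RPM in Puf1 and 43.8 RPM in Puf6. Across bound genes, Spearman's rho of RPM with RPKM was -0.28 in Puf1 (n = 24), 0.12 in Puf2 (n = 35), -0.0013 in Puf4 (n = 50), 0.075 in Puf5 (n = 45) and -0.058 in Puf6 (n = 19). Points within a library share its depth, and copies of a pair may share reads.

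The group was also described by the place of each protein in the subunit. Of 7 genes for proteins at the mRNA entry and decoding site (RPS2, RPS3, RPS15, RPS23A, RPS23B, RPS30A and RPS30B), Puf4 and Puf5 each bound all 7, Puf1 bound 5, and Puf2 and Puf6 bound 2 each. With 7 genes the intervals are wide (29.0 to 96.3% for Puf1, 3.67 to 70.96% for Puf2 and Puf6, 59.0 to 100% for Puf4 and Puf5). In each library the interval holds the share of the 130 other abundant genes. That share was 79.2% for Puf4, 74.6% for Puf5, 66.9% for Puf2, 43.8% for Puf1 and 36.2% for Puf6. RPS2, whose protein lines the entry channel and affects decoding accuracy, held 12 sites over 4 libraries. These included 1406 RPM in the 5' UTR in Puf1, 806 RPM in the 3' UTR in Puf2 and 745 RPM in the coding sequence in Puf4. RPS3 mRNA, at 3288 RPKM, had 4 coding sites in Puf4, the highest at 125 RPM, and a 3' UTR site with 123 RPM in Puf5.

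RPS15 was called at the same pair of 3' UTR places in Puf1, Puf4 and Puf5. The place 34 nt past the stop codon had 820 RPM in Puf1, 203 RPM for Puf4 and 77.2 RPM for Puf5. The place 82 nt past it had 1145 RPM in Puf1, 1109 RPM for Puf4 and 2566 RPM for Puf5. The distal place was the higher one in each of the 3 libraries. RPS23A and RPS23B encode a protein of the decoding centre. RPS23A had 2254 RPM in Puf1, 106 RPM in Puf4, 336 RPM in Puf5 and 44.7 RPM in Puf6, while RPS23B had 307 RPM in Puf4, 147 RPM in Puf5 and no site in the other 3 libraries.

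Of 9 genes for proteins at the mRNA exit, among them RPS1A, RPS14A, RPS26A and RPS28A, Puf4 bound 8, Puf2 and Puf5 6 each, Puf1 3 and Puf6 1. For Puf4 this was 88.9% of the 9 genes, against 79.2% of the 130 other abundant genes, and for Puf5 66.7% against 74.6%. For Puf2 it was 66.7% against 66.9%, for Puf1 33.3% against 43.8% and for Puf6 11.1% against 36.2%. In each library the share of the 130 genes lay within the interval of the 9. RPS28B, whose 3' UTR is known to hold an element through which the Rps28 protein lowers its own mRNA, had 1544 RPM in its 3' UTR in Puf2, 71 nt past the stop codon. In Puf4 it had 159 RPM in the coding sequence and 58.7 RPM at 343 nt past the stop codon, the farthest 3' UTR site of the group. RPS14B, whose pre-mRNA is bound by the Rps14 protein, had 40.05 RPM in its intron and 105 RPM in its 3' UTR in Puf5 and no site elsewhere. RPS14A had coding sites in Puf2 (52.2 and 173 RPM) and Puf4 (62.9 RPM). RPS26A mRNA, at 2942 RPKM, had 2 coding sites in Puf4 (125 and 153 RPM). RPS26B, at 1300 RPKM, had 3' UTR sites with up to 1304 RPM in Puf1, 285 RPM for Puf4 and 147 RPM for Puf5.

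RPS31 encodes its protein as a fusion with ubiquitin. Its mRNA had a level of 5658 RPKM, the second highest of the group, but sites in 2 libraries only, with 899 RPM in the 3' UTR in Puf2 and 751 and 160 RPM in the coding sequence in Puf4. RPS12, the most abundant at 6531 RPKM, had sites in all 5 libraries, of which the highest was in the 3' UTR in Puf4 (497 RPM). In Puf2 it had 6.89 RPM in the coding sequence. RPS4A, also bound in all 5, had 1085 RPM in Puf1, 288 RPM in Puf2, 1031 RPM in Puf4, 5.27 RPM in Puf5 and 16.0 RPM in Puf6, and its Puf4 and Puf6 values stood at equal RPM in RPS4B. RPS0B, the next of these, had 4.41 RPM in Puf6 and 1241 RPM in Puf2 as its lowest and highest values. RPS25A, whose protein is needed for some internal ribosome entry, had 2.08 RPM in the 5' UTR in Puf1, 184 RPM in Puf2, 87.4 RPM in Puf4, 442 RPM in Puf5 and 55.9 RPM in Puf6.

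The share of sites in each part of the mRNA differed between libraries. For Puf5, 73.1% (61.8 to 82.5) of the small subunit sites lay in 3' UTRs, against 57.2% (51.1 to 63.2) of the sites of the 130 other abundant genes. For Puf1 the shares were 65.5% (45.7 to 82.1) and 45.5% (36.1 to 55.2). For Puf2 they were 50.9% (36.8 to 64.9) and 27.9% (22.3 to 33.95). For Puf4 they were 32.8% (24.8 to 41.7) and 19.6% (15.7 to 24.0), and for Puf6 26.9% (11.6 to 47.8) and 24.7% (15.3 to 36.1). In Puf2 and Puf4 the intervals of the small subunit genes and of the other abundant genes did not overlap, and in the other 3 libraries they did. Among sites of the large subunit genes the 3' UTR share was 78.6% in Puf5, 68.6% in Puf1 and 41.7% in Puf6. It was 36.25% (25.8 to 47.8) in Puf2 and 30.3% (23.0 to 38.5) in Puf4. In each library the large subunit interval overlapped that of the small subunit genes. Over all other mRNA sites the 3' UTR share was 29.9% (27.7 to 32.2) for Puf4 and 19.2% for Puf6, each within the interval of the group. It was 58.5% for Puf5, 43.1% for Puf1 and 31.3% for Puf2, each below that interval. The sites of a gene are not independent of each other, so these intervals are too narrow.

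In Puf4, 82 of the 128 sites of the group were coding, 64.1%, against 65.4% of all other mRNA sites and 76.7% of the sites of the 130 abundant genes. These coding sites had a median of 88.9 RPM and the 42 sites in 3' UTRs one of 874 RPM, against 102 RPM and 621 RPM over all other Puf4 mRNA sites. Of the summed RPM of the group, the 3' UTR share was 76.4% for Puf4, 92.3% for Puf5, 39.0% for Puf6, 82.5% for Puf2 and 85.7% for Puf1. The 5' UTR held 3 sites in Puf1, 4 in Puf4, 4 in Puf5 and 0 in Puf2 and Puf6. RPS8B, with 8 sites in its coding sequence and 4 in its 3' UTR across Puf4, Puf5 and Puf6, held sites of both kinds. Its 6 coding sites in Puf4 had 38.2 to 149 RPM, and the place 33 nt past its stop codon had 355 RPM in Puf4, 447 RPM in Puf5 and 64.8 RPM in Puf6.

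Sites in 3' UTRs were close to the stop codon. In Puf1 the 19 sites started at a median of 34 nt past it, against 81 nt for the other 130 abundant genes. The medians were 60 nt (27 sites) and 74 nt for Puf2, 66.5 nt (42 sites) and 77 nt for Puf4, 48 nt (57 sites) and 68 nt for Puf5, and 61 nt (7 sites) and 78.5 nt for Puf6. Over all other mRNA sites, however, the median was 60 nt in Puf4 and 48 nt in Puf6, nearer to the stop codon than in the group, and 71 nt in Puf1, 74 nt in Puf2 and 66 nt in Puf5. For the large subunit genes it was also nearer than in the group in Puf2 (53 nt), Puf4 (42.5 nt) and Puf6 (44 nt). In Puf1 it was 54 nt and in Puf5 52 nt. A few sites that the authors classed as 3' UTR started up to 12 nt before the end of the coding sequence. Lengths of the UTRs were not used here, so whether the small subunit mRNAs have shorter 3' UTRs was not tested.

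**Figure D3:**
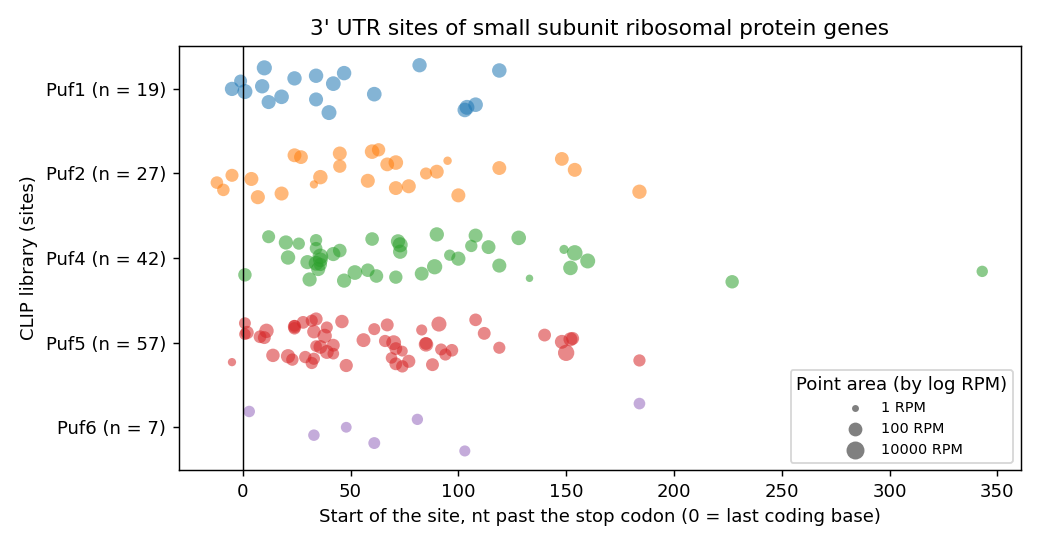
Distance from the stop codon to the start of each 3' UTR site of the small subunit genes, in nt, by CLIP library, with n as the number of sites and the area of a point growing with the log of RPM. Most sites start within 100 nt of the stop codon (48 of 57 in Puf5), and the farthest lies at 343 nt in Puf4.

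Sites of different proteins often fell on the same stretch. The 152 3' UTR sites of the group merged into 87 places in 47 genes. Of these, 42 were called in 1 library, 26 in 2, 18 in 3, 1 in 4 and 0 in all 5. Puf4 and Puf5 shared 26 places, Puf2 and Puf5 16, Puf1 and Puf5 12, Puf1 and Puf4 9, Puf2 and Puf4 9, and Puf1 and Puf2 5. Puf6 shared 5 places with Puf5, 2 with Puf1, 1 with Puf2 and 1 with Puf4. These counts depend on the number of 3' UTR sites of the group in each library. That number was 57 in Puf5, 42 in Puf4, 27 in Puf2, 19 in Puf1 and 7 in Puf6. The same counts over other genes were not made. All lysates were cut with RNase T1, and the part of its cutting pattern in these shared places was not tested.

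RPS18B held the place called in 4 libraries, 119 nt past the stop codon (chromosome XIII, 222846 to 222868, minus strand). It had 1378 RPM in Puf1, 714.5 RPM in Puf2, 867 RPM in Puf4 and 120 RPM in Puf5. RPS11A, 36 nt past its stop codon, had 1281 RPM in Puf2, 1825 RPM in Puf4 and 608 RPM in Puf5. RPS17B, at 73 nt, had 860 RPM in Puf2, 2930 RPM in Puf4 and 317 RPM in Puf5. RPS10A, at 100 nt, had 1550 RPM in Puf1, 1001 RPM for Puf4 and 194 RPM for Puf5. Among the 19 places called in 3 or 4 libraries, Puf5 had the highest RPM in 4, those of RPS27A and RPS8B, the proximal place of RPS21A and the distal place of RPS15.

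RPS1A held one of the places that Puf6 shared, 184 nt past the stop codon, with 1118 RPM in Puf2, 130 RPM in Puf5 and 74.6 RPM in Puf6. A Puf4 site that overlapped this RPS1A place carried the name of the next gene, SEC39, as a 5' UTR site with 134 RPM. It is not counted for RPS1A. Of the small subunit 3' UTR sites, 70.2% in Puf5 and 69.0% in Puf4 overlapped a site of another library by at least 1 nt, against 56.8% and 67.1% for the other abundant genes. In Puf1 the shares were 84.2% and 60.8%, in Puf2 70.4% and 76.5%, and in Puf6 85.7% (6 of 7 sites) and 66.7%. Over all other mRNA sites in 3' UTRs the overlap was lower than in the group in each library, at 25.3% for Puf5, 43.0% for Puf4, 53.2% for Puf1, 58.1% for Puf2 and 44.3% for Puf6. For Puf2 the group thus lay above all other sites and below the other abundant genes.

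The copies of each pair were then compared. Puf4 had a site in both copies of 18 of the 24 pairs and in 1 copy of 6. Puf5 had 14 pairs with both and 10 with 1 copy, Puf2 had 9 with both, 11 with 1 and 4 with none, Puf1 had 4, 10 and 10, and Puf6 had 6, 5 and 13. With 3' UTR sites alone, both copies were bound in 6 pairs in Puf4, 8 in Puf5, 4 in Puf2, 2 in Puf1 and 0 in Puf6. Such counts depend on the share of genes bound in each library, from 33.9% in Puf6 to 89.3% in Puf4. Pairs outside the group were not counted, so no level for pairs stands beside them.

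Coding sites often had the same RPM at the same place in both copies. Among 113 coding sites of paired genes over the 5 libraries, 46 had a partner in the other copy of the same library within 10 nt of the same distance from the stop codon and within 1% of its RPM. For 42 of them the RPM was equal to the last digit deposited. These sites fell in 12 pairs. Of 130 3' UTR sites of paired genes, 0 had such a partner. In RPS4A and RPS4B, Puf4 had 1031 RPM in both copies 30 nt before the end of the coding sequence and 61.1 RPM in both further upstream, and Puf6 had 16.0 RPM in both. In their 3' UTRs the Puf4 values were not equal, with 882 RPM in RPS4A and 1006 and 707 RPM in RPS4B. Such coding sites cannot be assigned to 1 copy.

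**Figure D4:**
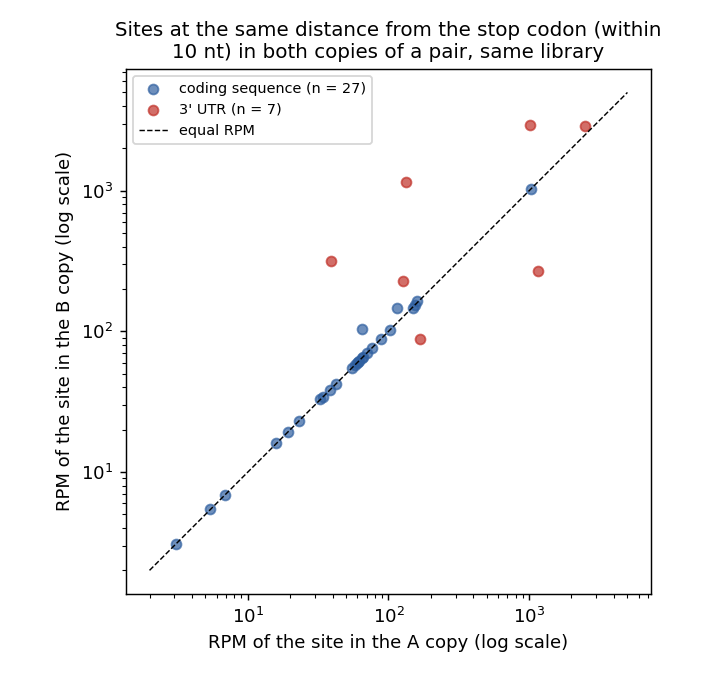
RPM of sites called in the A copy (horizontal, log scale) and the B copy (vertical, log scale) of a pair in the same library, within 10 nt of the same distance from the stop codon. Of 27 coding site pairs most lie on the line of equal RPM, and the 7 pairs in 3' UTRs lie off it.

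Without these shared sites, both copies remained bound in 17 pairs in Puf4, 13 in Puf5, 4 in Puf2, 4 in Puf1 and 3 in Puf6. The largest ratios between copies were then followed. In Puf4, RPS19B had 5214 RPM in its 3' UTR while RPS19A had a single site with 34.1 RPM, in the coding sequence and equal to that of RPS19B. RPS16B had 1043 RPM and RPS16A 1.22 RPM. RPS27A had 4665 RPM and RPS27B 84.6 RPM, although RPS27A mRNA had 373 RPKM and RPS27B mRNA 1033 RPKM. In Puf5, RPS4B had 243 RPM against 5.27 RPM in RPS4A, RPS11A 608 RPM against 61.6 RPM in RPS11B (a coding site shared by both copies), and RPS19B 1145 RPM against 133 RPM in RPS19A.

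The largest ratio of the strongest RPM between copies was 855 for Puf4, 46.1 for Puf5, 35.9 for Puf1, 14.7 for Puf2 and 9.35 for Puf6. In Puf1, Puf4, Puf5 and Puf6 the lower value of this ratio stood near the foot of the list, so the size of the ratio is uncertain. It was 1.22 RPM for RPS16A in Puf4 (rank 1757 of 1792 mRNA sites) and 5.27 RPM for RPS4A in Puf5 (2262 of 2264). For RPS0B in Puf6 it was 4.41 RPM (437 of 438), and for RPS10B in Puf1 43.2 RPM (412 of 435). Puf1 had 1550 RPM in RPS10A and 43.2 RPM in RPS10B, 1158 RPM in RPS9A and 269 RPM in RPS9B, and 1770 RPM in RPS30B and 626 RPM in RPS30A. Puf2 had 801 RPM in RPS6B and 54.6 RPM in RPS6A, 1118 RPM in RPS1A and 79.8 RPM in RPS1B, and 637 RPM in RPS19B and 70.4 RPM in RPS19A. The values of 54.6 RPM and 70.4 RPM were those of coding sites shared by both copies. In Puf6 the largest ratio was that of RPS0A (41.2 RPM) over RPS0B (4.41 RPM), followed by RPS8B (64.98 RPM) over RPS8A (19.2 RPM) and RPS25A (55.9 RPM) over RPS25B (40.3 RPM).

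With shared coding sites counted, the copy bound alone was not always the more abundant one. In Puf4 these copies were RPS7B (861 RPM), RPS9B (1238 RPM), RPS11A (1825 RPM), RPS14A (62.9 RPM), RPS21A (1520 RPM) and RPS25A (87.4 RPM), and 4 of the 6 had the higher RPKM of their pair. In Puf5 they were RPS6A (317 RPM), RPS8B (447 RPM), RPS10A (1053 RPM), RPS14B (105 RPM), RPS18B (120 RPM), RPS21A (2053 RPM), RPS22A (119 RPM), RPS26B (147 RPM), RPS27A (12395 RPM) and RPS28A (117 RPM). Of these 10, 5 had the higher RPKM. In Puf1 this held for 4 of 10 copies bound alone, in Puf2 for 7 of 11 and in Puf6 for 1 of 5. Without shared coding sites, 1 copy was bound in 7 pairs in Puf4 and 11 in Puf5, with RPS19B and RPS11A added. RPS14B, bound alone by Puf5, had 146 RPKM, against 1837 RPKM in RPS14A. RPS21A was bound by Puf2, Puf4 and Puf5 with 9 sites, against no site in RPS21B, which had 816 RPKM.

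Genes that act with the small subunit were followed as well. ASC1, which encodes a protein on the head of the subunit, and STM1, a ribosome-associated factor, had sites in Puf1, Puf2, Puf4 and Puf5 and none in Puf6. Their mRNAs stood at 2197 and 2457 RPKM. Of the 130 other abundant genes, 33 were bound in 4 libraries and 21 in all 5. STM1 reached 2778 RPM in the coding sequence in Puf4 and 1724 RPM in the 3' UTR in Puf1, and ASC1 at most 171 RPM, in Puf2. Of 18 assembly factors of the subunit, 7 had a site in some library, 4 in Puf4 and 4 in Puf5. This was 22.2% in both libraries, against 19.7% of all 5521 genes in Puf4 and 25.0% in Puf5, so these counts were near the background. For a site in any library the share of all genes was not counted, so no level stands beside the 7 of 18. PNO1 had 1635 RPM and RRP12 1038 RPM in the 3' UTR in Puf4, and HRR25, a protein kinase, had 1798 RPM in the coding sequence in Puf1. The median level of these 18 mRNAs was 98.6 RPKM. Of 6 transcription regulators of ribosomal protein genes, 3 had a site, among them IFH1 (328 RPM in Puf2) and SFP1 (145 RPM in Puf5), and RAP1, FHL1 and CRF1 had none. By library, 2 of the 6 were bound in Puf5 and 1 each in Puf1, Puf2 and Puf4, with intervals that held the share of all genes. No level stands beside the 3 of 6 either. HMO1, an HMG-box protein at these promoters, had 3' UTR sites with 2082 RPM in Puf1, 820 RPM for Puf4 and 762 RPM for Puf5.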

How the data were processed

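Per the submitters' processing notes, CLIP and mRNA-seq reads were processed with Bowtie 0.12.7 and the sacCer3 build, and CLIP reads also with CASAVA 1.8.2. The site caller, its threshold, the UTR annotation and the handling of multiply mapping reads are not given in the sources used here. The authors deposited RPM per called site in each library, and 1 RPKM column for both mRNA-seq samples. How these samples were joined is not given in the sources used here. No read counts were recovered, since RPM values were not multiples of a 1-read step, and library depth is unknown. Summed over every site of a list, RPM came to 420222 for Puf6 and 838474 to 898509 for the others.

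Genes were matched by locus tag to RefSeq (R64), whose gene bounds were used as coding bounds. Whether deposited positions count from 0 or 1 is not stated, so positions are as deposited and distances are good to 1 nt. Gene strand was read from the locus tag. Sites of predicted UTRs counted as UTR sites. Shares have exact Clopper-Pearson 95% intervals (SciPy 1.17.1, Python 3.11.15). The counting steps were tested on simulated sites. Members named with values were the 5 with the highest RPM per library, those bound in all libraries or none, copies bound alone in Puf4 or Puf5, and the 3 pairs per library with the largest ratio between copies, with examples by role added after their values were seen. Members, gene lists and role groups were chosen with earlier results of these data known. The values of 1 member are not reported here, though counts over the group include it.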

Additional observations from a re-analysis of the deposited data

How the results depend on the processing

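Each result was recomputed under the alternatives chosen at the start and under 4 added after the data were seen (the comparison with 130 other abundant genes, the members above their lower quartile, and, for genes and for pairs, coding sites shared by both copies left out). Of 90 values, 54 stayed within 1.5 times, or for shares within the interval, and 36 moved. With 3' UTR sites alone, the genes bound numbered 23 in Puf2, 31 in Puf4 and 6 in Puf6, and pairs with both copies bound 6 in Puf4, 8 in Puf5, 4 in Puf2, 2 in Puf1 and 0 in Puf6. Counting only sites that overlap the RefSeq coding bounds, which drops UTR sites that do not reach into them, left 10 genes in Puf1 and 18 in Puf5. The 50% of sites with the highest RPM left 12 genes in Puf6, and gave 3' UTR shares of 72.7% in Puf2 and 42.2% in Puf4. Weighting by RPM gave 3' UTR shares of 76.4% for Puf4, 92.3% for Puf5, 82.5% for Puf2 and 85.7% for Puf1. Summing RPM over the sites of a gene raised the Puf4 median to 914 RPM. Leaving out sites with the RPM and length of another gene's site, or the shared coding sites, left 4 pairs with both copies bound in Puf2 and 3 in Puf6.

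The background share moved as well. Among other genes within the RPKM range of the small subunit genes it was 41.1% for Puf4, 44.3% for Puf5, 27.8% for Puf2, 13.3% for Puf1 and 13.1% for Puf6. Among the 130 abundant genes it was 79.2% for Puf4, 74.6% for Puf5, 66.9% for Puf2, 43.8% for Puf1 and 36.2% for Puf6. Without an RPKM filter it was 18.6% in Puf4 and 23.7% in Puf5, and with a minimum of 10 RPKM 21.1% and 26.4%. The planned counts of sequence elements in the sites were not run. No paired analysis was possible because each protein had 1 library. With 1 library per protein, an unknown depth and no untagged library, a gene without a site is not shown to be unbound.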
